A study of Bos taurus with 28 samples.

Results

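ENSBTAT00000011088 is 1 of 28054 bovine transcripts measured by mRNA sequencing of conceptuses, and was chosen because reads of it were frequent on days 10 and 13 of development and absent or near absent on days 7, 16 and 19. The files give it as an Ensembl transcript identifier without a gene name. None of the 28054 identifiers matched the supplied RefSeq gene table (37063 genes), so its gene, genome position and protein are not reported here, and the stage labels were not checked against marker genes. Its length, recovered from the values, was 1063 nucleotides. It was chosen by its RPKM levels in these libraries, so its values on the 5 days are a description and carry no test of the day pattern. Tests were made only of day 13 against day 10, and of the order of the day 10 replicates against measures of the libraries. The choice did not fix the direction of the first, but values of both days entered it.

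The cow conceptus is the embryo together with the membranes it forms. It hatches from its zona pellucida as a sphere, becomes ovoid, and then elongates into a filament by growth of its outer layer, the trophectoderm. The inner cell mass resolves into epiblast, which forms the fetus, and hypoblast, which lines the yolk sac. The filament secretes interferon tau, the signal by which a pregnant cow keeps her corpus luteum, and then attaches to the endometrium.

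By label, 6 libraries came from day 7 blastocysts, 7 from day 10 hatched conceptuses, 5 from day 13 ovoid conceptuses at the start of elongation, 5 from day 16 filaments at maternal recognition of pregnancy and 5 from day 19 filaments at the start of implantation. Per the labels' protocols, the donors of every group were crossbred beef heifers with synchronised oestrus, inseminated from 1 bull. The heifers of days 7 and 10 were superovulated with FSH and their embryos pooled in groups of 5, whereas the protocols describe day 13, 16 and 19 conceptuses as single and from heifers not superovulated. The sample characteristics give day 13 as pooled and superovulated instead, so the labels disagree there. RNA of days 7, 10 and 13 was selected for poly(A) directly from the tissue, and that of days 16 and 19 after a total RNA preparation, so this change of method and the passage from ovoid to filament cannot be told apart.

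The files of 12 libraries carry another sample's title, among them all of days 7 and 19. In 9 of these the title is of the same day, so the day stands but which replicate a day 7 or day 19 value belongs to is uncertain. The values of the other 3 stand under a title that belongs to a sample of another day. One is day 16 replicate 5, with a day 19 title. Another is day 19 replicate 5, with a title of day 7, and the last is day 7 replicate 6, titled as day 16. The file names also carry a mark of the day, which is 19, 7 and 7 in the same order. The 3 libraries are shown apart and enter no mean. Day 16 replicates 2 and 3 differed by little more than sampling noise (mean chi-square of their reads 1.19 per transcript, against 5.38 to 18.0 for the other day 16 pairs) and were counted as 1 sample. That left 24 replicates: 5, 7, 5, 3 and 4 for days 7 to 19 in order. Library totals ran from 473552 to 10871501 reads, and intervals and limits below cover counting error only, since reads copied by PCR are not independent molecules. Replicates are separate samples by label, but the heifer of each is not named, so the p-values reflect sample-to-sample spread, which may be partly technical.

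On day 7 the transcript had no read in 5 of 5 replicates, among 11.5 M reads in all. The limit that 3 reads would set is 0.246 RPKM (reads per kilobase of transcript and per M library reads) over the whole day. In single libraries that limit was wider, from 0.480 RPKM in replicate 2 to 5.96 RPKM in replicate 5.

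On day 10 it had a read in 7 of 7 replicates. Its level was 86.1 RPKM in replicate 1, 22.0 in replicate 2, 0.355 in replicate 3, 142 in replicate 4, 149 in replicate 5, 54.4 in replicate 6 and 12.4 in replicate 7. Replicates 4 and 5 were the highest and resembled each other throughout (mean chi-square 4.49, the lowest among the pairs of days 7, 10, 13 and 19), and replicate 3 was close to nothing. The mean was 66.6 ± 61.0 RPKM (SD, n = 7) and the median 54.4. This unweighted mean was 270-fold the limit of 0.246 RPKM from the pooled day 7 reads. The ratio holds for the mean only: replicate 3 stood little above that limit, and single day 7 libraries had limits up to 5.96 RPKM. In pooled whole conceptuses, fewer cells holding a transcript and less of it per cell cannot be told apart.

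On day 13 the 5 replicates lay closer together. The level was 13.5 RPKM in replicate 1, 21.4 in replicate 2, 16.8 in replicate 3, 46.6 in replicate 4 and 18.3 in replicate 5. Replicate 4 was the highest, and its 95% Poisson interval, 41.2 to 52.6 RPKM, lay above those of the other 4. The mean was 23.3 ± 13.3 RPKM (SD, n = 5), 94.7-fold the limit from the pooled day 7 reads.

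On day 16 there were 4 reads of the transcript in 11.8 M. Replicates 1 and 4 had none, and the sample formed by replicates 2 and 3 was at 0.447 RPKM, from 1 and 3 reads. The lowest day 13 replicate stood 30.1-fold above that highest day 16 value. On day 19 there were 3 reads in 37.0 M: replicate 2 was at 0.176 RPKM, replicate 4 at 0.0928, and replicates 1 and 3 had no read. The day 16 mean was 0.149 ± 0.258 RPKM (SD, n = 3), and that of day 19 was 0.0672 ± 0.0848 RPKM (SD, n = 4).

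The 3 libraries shown apart held 4 reads in all. Day 16 replicate 5 had 3 reads among 10213132 (0.276 RPKM), day 19 replicate 5 had 1 among 836351 (1.12 RPKM, Poisson interval 0.0285 to 6.27) and day 7 replicate 6 had none among 995791. None reached the level of any day 13 replicate. If day 19 replicate 5 is a day 7 library, as its file title and day mark say, its single read would be the only one on that day. The transcript would then no longer be without a read on day 7. In that library ENSBTAT00000002447 was at 39.0 RPKM, against means of 37.2 ± 24.2 on day 7 and 7.73 ± 2.18 on day 19 (SD). ENSBTAT00000019810 was at 34.6 RPKM, against 38.5 ± 19.9 and 7.19 ± 1.64. Not every transcript named below stood near day 7: ENSBTAT00000009736, at 2.65 RPKM, lay above all replicates of both days. The day of the library was not tested.

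**Figure D1:**
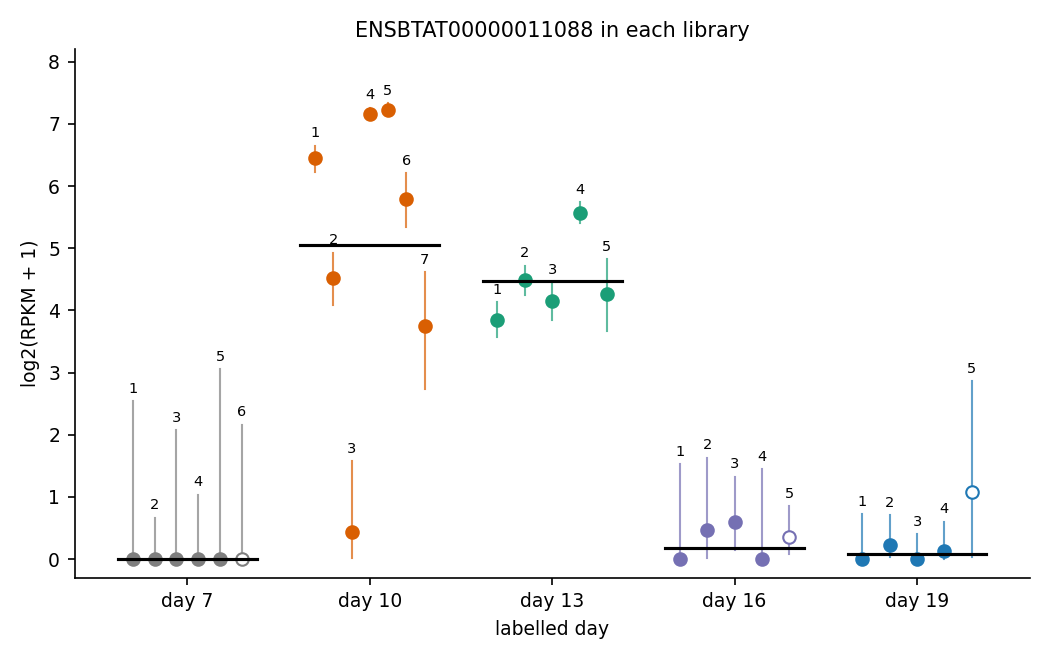
Level of ENSBTAT00000011088 in each of 28 libraries by labelled day, as log2(RPKM + 1). Points are libraries numbered by replicate, vertical lines their 95% Poisson counting intervals, and black lines the mean log2 level over the replicates used; open points are the 3 libraries whose file carries the title of another day. Day 10 replicates 4 and 5 stand at 142 and 149 RPKM. Day 10 replicate 3 stands at 0.355, within the range of day 16 and above the day 19 replicates used.

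In order of their means the days ran 10, 13, 16, 19 and 7. The values of day 10 span those of day 13. Days 13 and 16 did not overlap, whereas days 16, 19 and 7 overlapped at or near no read. Day 10 and day 16 overlapped only through day 10 replicate 3, at 0.355 RPKM against a highest day 16 value of 0.447.

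The choice did not fix the direction of a difference in level between the hatched sphere and the ovoid conceptus. It did ask for reads on both days, so the values tested here entered it and the p-values are not independent of it. The mean log2 level, with a pseudocount of 1, was 5.05 ± 2.41 (SD, n = 7) for day 10 and 4.47 ± 0.66 (SD, n = 5) for day 13. The log2 difference, day 13 minus day 10, was -0.58 ± 0.75 (SE; limma over 19186 transcripts, 95% interval -2.11 to 0.96, adjusted p = 0.77), and the transcript was not called at an adjusted p under 0.05 with a log2 change of at least 1. An exact permutation test of the 12 values gave p = 0.64 (two-sided, 792 assignments). In that comparison limma called 1.19% of transcripts, 229 of 19186, with 0.662% higher and 0.532% lower on day 13 (127 and 102). That split turned with the scaling: it was 74 higher and 128 lower with a pseudocount of 0.1, 248 and 323 with voom on recovered reads, and 48 and 78 with total reads as covariate. The interval for ENSBTAT00000011088 spans zero widely, so these replicates leave both a lower and a higher day 13 level within reach.

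Day 10 replicate 3 moved this value most. Without day 10 replicate 3 the difference was -1.35 ± 0.51 (limma, adjusted p = 0.26), still not called. With day 10 replicates 4 and 5 counted as 1 sample it was -0.22 ± 0.74 (adjusted p = 0.91). By the protocols, pooling and superovulation also changed between these days and cannot be told apart from stage.

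Day 10 replicates differed widely. At the rate of the other 6, day 10 replicate 3 would have held 316 reads of the transcript, and it held 1. On the log2 scale the SD of 2.41 on day 10 was reached by 51 of 7559 transcripts with a day 10 median of at least 10 RPKM, itself included (0.675%), whose median SD was 0.77. That rank rested on replicate 3: without it the SD was 1.42, reached by 11.5% of 7686 transcripts, an alternative chosen after seeing the data. On day 13 the SD of 0.66 was ordinary, since 32.3% of 7735 such transcripts had one as large.

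Day 10 replicate 3 did not hold less of abundant transcripts in general. Among 7686 transcripts with a median of at least 10 RPKM in the other 6 replicates, its median log2 difference from that median was -0.04, and 5% of transcripts lay below -2.03. ENSBTAT00000011088, with a median of 70.2 RPKM in the other 6, lay at -5.72, and 0 of the 7686 lay lower. On this scale a transcript cannot fall by more than log2(median + 1). Those with medians near 10 RPKM could therefore not have reached -5.72, so the rank is partly set by this floor. Replicate 3 was also singled out because the transcript was lowest there, so the rank is a description. With this transcript included, the library had 47 that were lower by 4 or more. That was fewer than replicate 1 (95), replicate 2 (120), replicate 6 (76) or replicate 7 (75), and more than replicate 4 (2) or replicate 5 (3). The same floor limits these counts. Replicates 4 and 5 were at the other end, with differences of 1.87 and 1.94 for the transcript, above 99.7% of the transcripts compared in each.

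**Figure D2:**
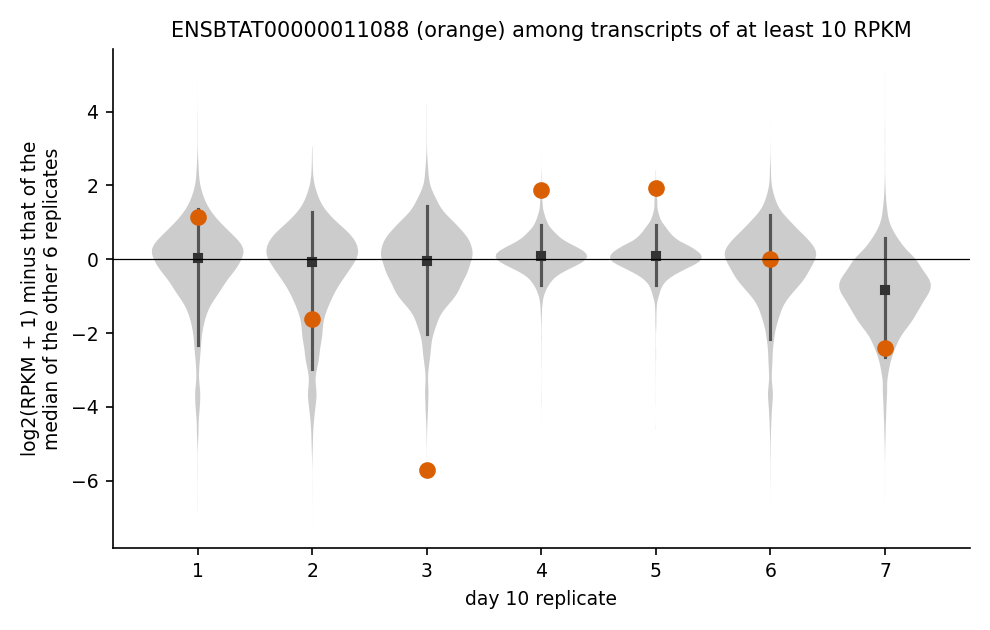
Level of ENSBTAT00000011088 in each day 10 replicate as a difference on the log2(RPKM + 1) scale from the median of the other 6 replicates (orange points), against all transcripts with at least 10 RPKM in that median (grey violins; squares are medians, dark lines run from the 5th to the 95th percentile). In replicate 3 the transcript lies at -5.72, below every other transcript compared. Transcripts with medians near 10 RPKM cannot fall that far on this scale, and replicate 3 was singled out for its low level of this transcript.

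The day 10 level was set beside 3 measures of the libraries, as the choice of the transcript did not use the order of its replicates. Pearson's r with log10 total reads was 0.30 and Spearman's rho 0.61 (n = 7; exact permutation p = 0.54 and 0.17, adjusted over 3 measures 0.57 and 0.25). With the percentage of reads in ENSBTAT00000042502, a 92-nucleotide transcript that took 0.277% to 38.4% of the reads, r was -0.25 and rho -0.64 (exact permutation p = 0.57 and 0.14, adjusted 0.57 and 0.25). With the number of transcripts detected at 300000 reads, r was 0.46 and rho 0.25 (exact permutation p = 0.29 and 0.59, adjusted 0.57 and 0.59). Without the 2 replicates farthest from the median of each measure, r was 0.46, -0.42 and -0.61 in the same order, so the sign of the last rests on replicates 2 and 3. None of the relations passed with all 7. Day 10 replicate 3, behind only replicates 4 and 5 in depth but nearly without the transcript, decided the first pair: without it r with total reads was 0.79 and rho 0.94 (n = 6; exact permutation p = 0.068 and 0.017, adjusted 0.10 and 0.05), and r with the 92-nucleotide share was -0.75 (exact permutation p = 0.040, adjusted 0.10). The relation also leaned on replicates 4 and 5, the deepest and most alike: with these counted as 1 sample and replicate 3 kept, r with total reads was 0.13 and rho 0.37 (n = 6; exact permutation p = 0.82 and 0.50, adjusted 0.82 and 0.66). Beyond these correlations, the part of depth in the spread was not tested.

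Among all transcripts the day pattern was rare. A read was missing from every day 7 replicate for 5634 of 28054 transcripts, and 9454 reached 1 RPKM in at least 6 of 7 day 10 replicates and in all 5 of day 13. ENSBTAT00000011088 was the only transcript that met both conditions. It was also the only one of the 28054 with the whole pattern, which asks in addition for under 1 RPKM in every replicate of days 16 and 19. The allowance for a day 10 replicate under 1 RPKM was needed by ENSBTAT00000011088 itself, at 0.355 RPKM in replicate 3. Day 19 replicate 5, with 1 read and a title of day 7, is not among these replicates. The count describes how selective the choice was and is not a test.

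Of the 5634 transcripts without a read on day 7, it had the highest day 10 mean, 66.6 RPKM. Those ranked behind it were short: ENSBTAT00000042383 (124 nucleotides) had a mean of 38.0 RPKM and ENSBTAT00000054256 (47 nucleotides) 30.0. The first of these had reads in 2 of 7 day 10 replicates, 60 in replicate 2 and 9 in replicate 4, so its mean came from few reads. ENSBTAT00000011088 had 1881 reads on day 10.

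Without the condition on day 7, 10 other transcripts were present on days 10 and 13 and under 1 RPKM in every replicate of days 16 and 19. The 3 with the highest mean over days 10 and 13, chosen after their values were seen, all had reads on day 7. ENSBTAT00000028557 had a day 7 mean of 4.19 ± 3.14 RPKM (SD, n = 5). Its day 10 median was 11.1 RPKM (1.91 to 20.4), its day 13 mean was 43.1 ± 11.9 RPKM (SD, n = 5), and it was called higher on day 13 (log2 difference 2.20 ± 0.47, limma adjusted p = 0.017). ENSBTAT00000053439 had the same number of reads as ENSBTAT00000028557 in 23 of 28 libraries, so the pair cannot be read as separate transcripts. ENSBTAT00000017906 was at 5.45 ± 4.02, 13.9 ± 15.7 and 15.3 ± 7.92 RPKM (SD) over days 7, 10 and 13. No transcript had the same reads as ENSBTAT00000011088 in all 28 libraries. ENSBTAT00000028557 and ENSBTAT00000053439 would pass that check too, so reads shared in part were not tested for.

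Days 10 and 13 held 99.8% of the sum of its 5 day means, against a median of 41.5% over the 19186 transcripts tested. Only 9 tested transcripts had a higher share. Each of those had reads in at most 4 of the 7 day 10 replicates, whereas ENSBTAT00000011088 had them in all 7. Comparing the lower of its means on days 10 and 13 (23.3 RPKM) with the highest on the other days (0.149 RPKM), the difference was 4.404 on the log2(RPKM + 1) scale. That was the largest of 19186. ENSBTAT00000009736 was next at 3.28, and 17 transcripts exceeded 2. The share and this difference both restate the pattern by which the transcript was chosen, so their ranks are a description and no test.

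**Figure D3:**
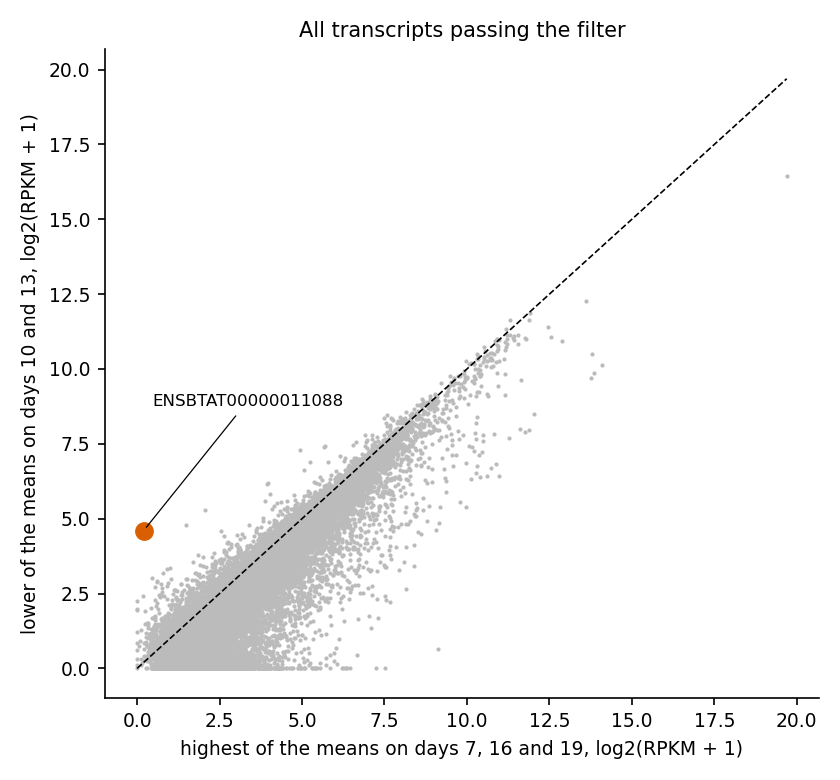
Lower of the mean levels on days 10 and 13 (vertical axis) against the highest of the mean levels on days 7, 16 and 19 (horizontal axis), both as log2(RPKM + 1), for the 19186 tested transcripts; the dashed line marks equal values. ENSBTAT00000011088 (orange) lies at 0.149 RPKM on the horizontal axis and 23.3 RPKM on the vertical, farther above the line than any other. It was chosen for this pattern.

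On the days it was present its abundance was middling to high. It ranked 647 by RPKM among 18570 transcripts with a read in day 10 replicate 5 and 705 among 18319 in replicate 4. In day 10 replicate 3 its 1 read put it above 2.79% of 14575. On day 13 it stood above 61.8% of the transcripts with a read in replicate 5 and above 85.6% in replicate 4, with the other 3 between these values.

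Likeness of pattern was measured as Pearson's r of log2(RPKM + 1) over the 24 replicates, ranked over 19185 other transcripts. The points share libraries and days, so r is a description. The median r was 0.03 and the 99th percentile 0.63. No transcript followed it closely: the highest r was 0.85, and 17 transcripts had at least 0.80. The 8 closest ran from 0.85 to 0.82, with the ninth at 0.81.

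ENSBTAT00000027205 (1904 nucleotides) was first, with r = 0.85. On day 10 it stood at 8.27, 0.820, 1.39, 11.5, 12.0, 4.05 and 1.54 RPKM in replicates 1 to 7, so replicates 4 and 5 were again the highest and replicates 2 and 3 the lowest. On day 13 it was at 8.00, 6.90, 6.57, 13.5 and 20.9 RPKM. Elsewhere it was low, with a mean of 0.268 ± 0.258 RPKM at day 7 (SD, n = 5), 0.889 ± 1.46 at day 16 (n = 3) and 0.375 ± 0.184 at day 19 (n = 4). Its means were in the opposite order to those of ENSBTAT00000011088, 5.66 ± 4.88 RPKM for day 10 and 11.2 ± 6.11 for day 13, with overlapping replicates (log2 difference 1.14, limma adjusted p = 0.34).

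ENSBTAT00000019936 (3928 nucleotides, r = 0.84) was low throughout, with means of 4.77 ± 3.19 RPKM on day 10 and 3.81 ± 2.94 on day 13. ENSBTAT00000009736 (2260 nucleotides, r = 0.84) came next in the contrast between days. Its mean was 26.3 ± 34.4 RPKM for day 10 (SD, n = 7), 27.5 ± 9.86 for day 13 (n = 5) and 0.164 ± 0.367 for day 7 (n = 5). Its day 10 replicates were ordered otherwise. It was highest in replicate 6, at 94.9 RPKM, and at 0.871 in replicate 1, where ENSBTAT00000011088 was at 86.1. Both were lowest in replicate 3, where ENSBTAT00000009736 had no read.

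ENSBTAT00000002447 (735 nucleotides, r = 0.83) and ENSBTAT00000052001 (738 nucleotides, r = 0.82) had reads in every replicate. The first had means of 37.2 ± 24.2, 136 ± 65.8, 118 ± 15.2, 8.25 ± 2.85 and 7.73 ± 2.18 RPKM (SD) from day 7 through day 19. The second was lower on each day, with day 10 and day 13 means of 120 ± 54.5 and 98.3 ± 19.9 RPKM, and the pair had the same number of reads in 3 of 28 libraries. Whether reads are shared between them was not tested.

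The remaining 3 were ENSBTAT00000007926 (17889 nucleotides), ENSBTAT00000020520 (971 nucleotides) and ENSBTAT00000002299 (1972 nucleotides), each with r = 0.83. ENSBTAT00000007926 had medians of 0.715 RPKM on day 10 (0 to 4.47) and 1.58 on day 13 (0.826 to 1.98). ENSBTAT00000020520 had medians of 17.2 RPKM on day 10 (0.389 to 43.6) and 7.46 on day 13 (2.69 to 13.6), the same order as in ENSBTAT00000011088. ENSBTAT00000002299 had the opposite order, with means of 38.5 ± 33.5 and 89.7 ± 41.2 RPKM.

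All 8 had reads on day 7 in at least 1 replicate. For ENSBTAT00000009736 these were 2 reads in replicate 3, under the limit that 3 reads set. Its day 7 can therefore not be told from an empty one. Days 10 and 13 held 82.7% to 96.2% of their summed day means. In 7 of 8 the highest day 10 value was in replicate 4 or 5, and in 7 of 8 the lowest was in replicate 3 or 7, against 15.4% and 32.3% of all tested transcripts (the first replicate counted where values tied). The 8 were chosen over these same replicates, so nothing is read from those counts. Between days 10 and 13, limma called 0 of the 8, where it called 1.19% of all transcripts; 2 of the 8 had an unadjusted p under 0.05 and voom on recovered reads called 0. Their log2 differences ran from -0.59 to 1.89 with a median of 0.02, against a median of 0.07 over all tested. Nor is anything read from that count of calls.

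**Figure D4:**
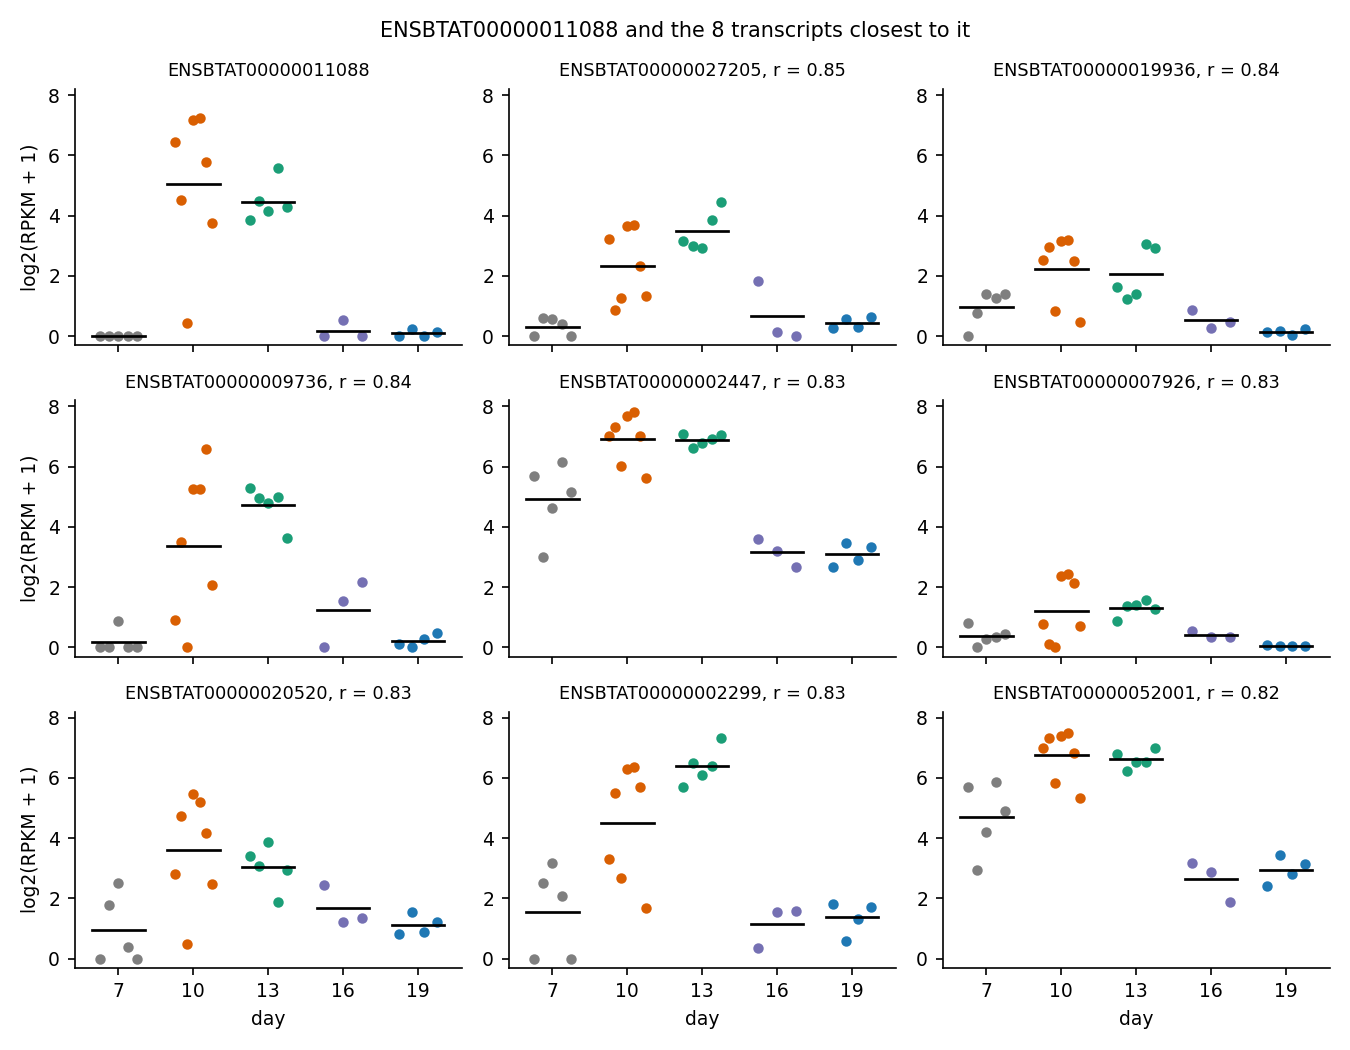
Levels of ENSBTAT00000011088 and of the 8 transcripts with the highest Pearson r to it, as log2(RPKM + 1) in each of 24 replicates by day; lines are day means and r stands in each title. In every panel the day 10 and day 13 means lie above those of the other days. Only ENSBTAT00000011088 has all its day 7 points at 0, but ENSBTAT00000009736 has no more than 2 reads there, in replicate 3.

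Differences between days enter r. The likeness within days was therefore taken as the correlation of deviations from the day mean over the 12 replicates of days 10 and 13. By this measure the 8 had values of 0.65 to 0.78, and other transcripts were closer. The highest was 0.98, for ENSBTAT00000005625 (2436 nucleotides), against a median of 0.16 over all transcripts, and 8 transcripts reached 0.90.

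ENSBTAT00000005625 was at 10.9, 3.84, 0, 11.7, 14.4, 8.97 and 1.81 RPKM in day 10 replicates 1 to 7, and had no read in replicate 3, as ENSBTAT00000011088 had 1. On day 13 it was at 13.3, 14.7, 9.83, 22.5 and 17.3 RPKM, again highest in replicate 4. It was present later too, with a day 16 mean of 3.36 ± 0.42 RPKM (SD, n = 3) and a day 19 mean of 2.89 ± 0.24 RPKM (SD, n = 4). Its r over the 24 replicates was 0.79, rank 21.

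ENSBTAT00000016560 (2505 nucleotides, within-day correlation 0.94) and ENSBTAT00000019810 (1071 nucleotides, 0.93) had no such day pattern. The first had a day 19 mean of 19.9 ± 6.85 RPKM and a day 10 mean of 10.2 ± 6.70 RPKM, with r = 0.06 over the 24 replicates. The second had a day 7 mean of 38.5 ± 19.9 RPKM and a day 10 mean of 27.7 ± 18.0 RPKM. All 3 had reads on day 7. Without day 10 replicate 3 the within-day correlations were 0.95, 0.89 and 0.97 for ENSBTAT00000005625, ENSBTAT00000016560 and ENSBTAT00000019810, at ranks 6, 25 and 1.

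**Figure D5:**
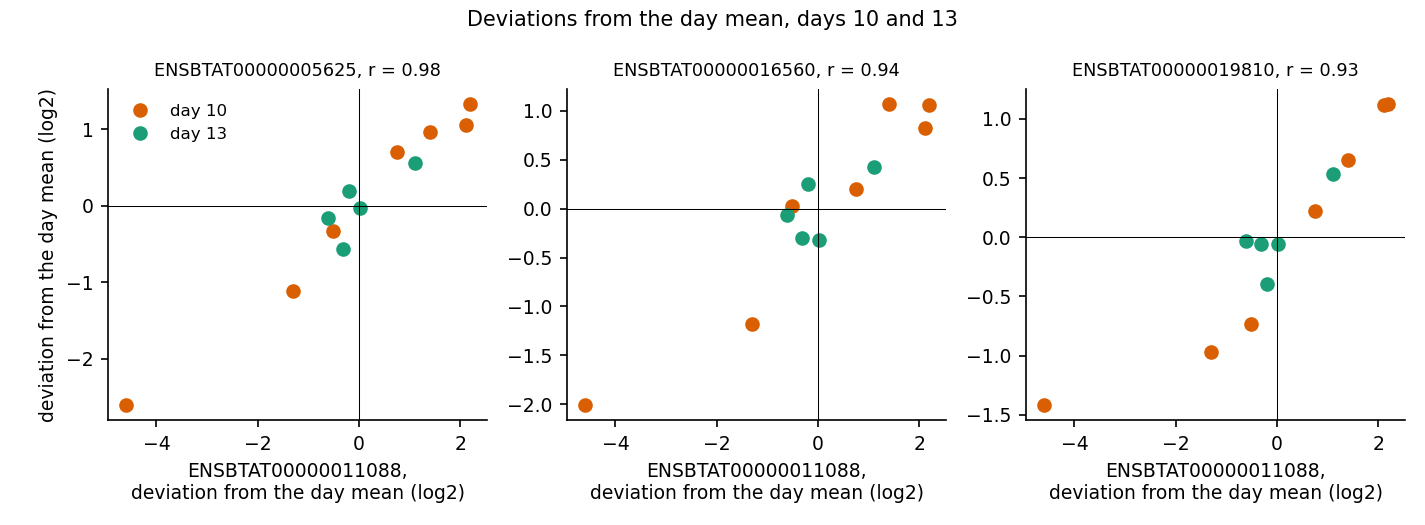
Deviations from the day mean on the log2(RPKM + 1) scale in the 12 replicates of days 10 and 13, for ENSBTAT00000011088 (horizontal axes) and the 3 transcripts with the highest within-day correlation (vertical axes, each with its own range). The point at the lower left of each panel is day 10 replicate 3, and r is 0.98, 0.94 and 0.93 from left to right.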

How the data were processed

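The authors deposited 1 RPKM value for each of 28054 Ensembl transcript identifiers per library, in 28 libraries. CASAVA is named without a version, per the submitters' processing notes; how reads were aligned, to which build and annotation, is not given in the sources used here. The deposited RPKM values rest on whole read numbers, which were solved for together with lengths and totals: 100.0% of 492922 values above 0 were whole to 1e-06 of a read, and at least 99.97% of each total was recovered.

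Groups follow the labels. The 19186 transcripts that reached 1 RPKM in 4 or more of 24 replicates were tested with limma 3.58.1 (R 4.3.3; trend and robust) on log2(RPKM + 1), the 5 days in 1 model, with Benjamini-Hochberg adjustment, called at an adjusted p under 0.05 and a log2 change of at least 1. A log2 change with a pseudocount understates changes of low transcripts. Scripts were tested on simulated data. Named transcripts are the 8 with the highest r, the 3 with the highest within-day correlation, and the 3 highest with the looser on and off pattern. Gene lists could not be used, as no identifier has a gene name. Members and lists were chosen with earlier results of these data known.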

Additional observations from a re-analysis of the deposited data

Results flagged for a closer look

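In the transcripts named above, each day with 4 or more replicates was screened for a lone high or low value, 59 groups in all, of which chance gives about 1 in 20. One was found. ENSBTAT00000009736 was at 0.820 RPKM in day 7 replicate 3, from 2 reads, and had no read in the other 4 day 7 replicates. The value lies under the limit that 3 reads set. No replicate of ENSBTAT00000011088 met the same limit.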

How the results depend on the processing

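The difference of ENSBTAT00000011088 between days 10 and 13 kept its sign and stayed uncalled in all 36 alternatives, from -1.35 to -0.22. The count of transcripts called there was 35 in the model of days 10 and 13 alone, 571 with voom on recovered reads, 126 when total reads were a covariate, and between 90 and 350 when 1 replicate was left out (95, 92 and 90 without day 13 replicates 1, 2 and 3, and 350 without day 13 replicate 5). With all 28 libraries by label the day 19 mean was 0.279 RPKM, since it then holds day 19 replicate 5; the other day means moved by less than 1 SD. Of the 8 closest transcripts, 5 stayed among the closest 8 with a pseudocount of 0.1, 4 with Spearman's correlation, 0 with days 10 and 13 only, 5 without day 10 replicate 7 and day 7 replicate 5, in which the 92-nucleotide transcript is frequent, and 3 to 8 leaving out 1 replicate: 3 without day 10 replicate 1, and 5 without day 10 replicates 2 or 7 or day 13 replicate 5. The cause was not tested. The on and off pattern was met by 0 transcripts when no read was allowed on days 16 and 19. It was also met by 0 with all 28 libraries, where day 19 replicate 5 reaches 1 RPKM. Counted as day 7, as its title says, that library would break the pattern through its 1 read. Leaving out 1 replicate, 1 to 2 transcripts met the pattern: without day 7 replicate 2, ENSBTAT00000038489 joined. The correlation with transcripts detected was -0.61 without the 2 farthest replicates and 0.0805 to 0.614 leaving out 1. No paired analysis was possible because the labels give no replicate numbers that link samples of different days. Depth limits the shallowest libraries most: 3 reads stood for 5.96 RPKM in day 7 replicate 5 and for 4.14 in day 10 replicate 7.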
